A study of Mus musculus with 20 samples.

Results

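The genes C1qb, Fcgr1, Clec4f, Csf1r and Mertk, used as markers of Kupffer cells, were followed across the livers of 20 gonadectomized mice. The 5 genes were found by their symbols in the platform annotation, each on 1 probe, among 21643 measured features of which 11734 were named genes. All animals were C57BL/6J mice of a cross in which the Y chromosome lacks the testis-determining gene Sry and an autosome carries a Sry transgene, so that gonads and sex chromosomes are inherited separately. The 5 XX Sry and 5 XY-Sry animals carried the transgene and were gonadal males, and the 5 XX and 5 XY- animals had no transgene and were gonadal females. Common to the 4 groups were a chow of 4% fat, removal of the gonads at an age of 8 weeks and death at 12 weeks, following 12 h without food. Gonadal males and females therefore differed in the transgene and in the gonads they had carried until week 8, and these cannot be told apart here. Each array compared the liver of 1 animal with a common pool of liver RNA, and every level is a log2 ratio of liver to that pool.

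Kupffer cells are the resident macrophages of the liver. They sit in the sinusoids, where they take up particles, bacteria, spent red cells and dying cells from the blood. The C1qb gene encodes the B chain of C1q, the recognition protein that starts the classical complement pathway and which macrophages secrete. The product of Fcgr1 is the high-affinity Fc receptor for IgG. Signalling through Csf1r, the receptor tyrosine kinase for CSF1 and IL-34, keeps macrophages alive. Apoptotic cells are bound through GAS6 and protein S and engulfed with the help of Mertk, a receptor tyrosine kinase of the TAM family (Tyro3, Axl, Mertk). Clec4f, a C-type lectin, is in the mouse largely restricted to Kupffer cells. C1qb, Fcgr1, Csf1r and Mertk are also made by other macrophages, and the arrays measured whole liver, in which fewer cells of a type and less RNA per cell cannot be told apart.

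The genes lie on 5 chromosomes. In the RefSeq annotation of GRCm38.p6, C1qb occupies chr4:136880126-136886200, Fcgr1 chr3:96282909-96293969, Clec4f chr6:83644542-83656116 and Mertk chr2:128698915-128803162. The 250 bases before the annotated start, as RefSeq gives them for GRCm38.p6, are printed for 4 of the 5 genes because 3 of these rose and fell together across animals and Mertk did so less closely. Each is written 5′ to 3′ on the gene's own strand. Capitals mark matches, on either strand, to the core GAGGAA bound by the macrophage factor PU.1, and to the letters TTCNNNGAA bound by STAT factors.
C1qb: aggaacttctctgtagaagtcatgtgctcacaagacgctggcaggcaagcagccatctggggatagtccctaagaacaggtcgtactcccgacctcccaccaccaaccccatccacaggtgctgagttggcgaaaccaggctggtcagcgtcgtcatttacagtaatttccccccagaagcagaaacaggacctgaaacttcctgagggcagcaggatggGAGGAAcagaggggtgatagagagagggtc
Fcgr1: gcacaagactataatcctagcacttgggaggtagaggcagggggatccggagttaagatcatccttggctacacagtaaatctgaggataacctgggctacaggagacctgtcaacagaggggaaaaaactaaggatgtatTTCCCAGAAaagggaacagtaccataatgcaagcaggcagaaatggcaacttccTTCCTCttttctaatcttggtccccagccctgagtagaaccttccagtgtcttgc
Clec4f: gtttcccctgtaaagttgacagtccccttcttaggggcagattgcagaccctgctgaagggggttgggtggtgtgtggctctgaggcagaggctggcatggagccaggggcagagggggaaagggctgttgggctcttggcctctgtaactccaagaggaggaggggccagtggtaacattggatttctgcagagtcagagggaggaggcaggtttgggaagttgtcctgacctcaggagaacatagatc
Mertk: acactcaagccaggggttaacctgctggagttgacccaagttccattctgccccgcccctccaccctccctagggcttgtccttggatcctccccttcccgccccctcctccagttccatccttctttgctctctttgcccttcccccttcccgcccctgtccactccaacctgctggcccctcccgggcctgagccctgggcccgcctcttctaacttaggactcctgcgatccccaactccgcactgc
The windows are chr4:136886201-136886450 (minus strand) for C1qb, chr3:96293970-96294219 (minus strand) for Fcgr1, chr6:83656117-83656366 (minus strand) for Clec4f and chr2:128698665-128698914 (plus strand) for Mertk. The C1qb window holds 1 GAGGAA and the Fcgr1 window 1 match on the other strand, read there as TTCCTC, and the 2 other windows hold none. Fcgr1 alone of these 4 windows holds a TTCNNNGAA match. The matches are descriptions of letters, since GAGGAA occurs on either strand in 23.3% of 32851 RefSeq windows of this length and TTCNNNGAA in 7.02%.

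Some features of the arrays bear on the values below. The library labelled XY- animal 30 goes against its label: the Y-linked genes Eif2s3y and Kdm5d had log2 ratios of -3.90 and -3.16 there, whereas in the 9 other XY livers Eif2s3y lay between 0.57 and 1.34 and Kdm5d between 0.14 and 1.37. In the 10 XX livers they lay between -5.28 and -2.46 and between -3.03 and -1.22. The SD of log2 ratios over all features was 0.318 to 0.341 on 4 arrays (XX animals 2 and 6, XY- animals 3 and 12) and 0.173 to 0.258 on the other 16. Correlations between arrays over all features ran from -0.55 to 0.68, and the direction of every ratio was kept because the labels give the liver the same dye on all arrays. XY- animal 12 stood above the 19 other animals for all 5 genes, and XY-Sry animal 14 above the 9 other gonadal males. Results are therefore also given without these libraries.

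C1qb, Fcgr1, Clec4f and Csf1r were lower in gonadal males than in gonadal females, by 1.55-fold to 2.13-fold, and Mertk did not pass the test. These 4 of 5 genes passed limma's test at an adjusted p under 0.05 (Benjamini-Hochberg over all features), against 2.28% of all features lower and 3.74% changed in either direction. Without XY- animal 12 the differences of the 4 genes were smaller, and all of them passed again, as did 2.51% of all features in that direction. No difference between XX and XY livers and no interaction passed for any of the 5 genes.

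C1qb, the complement gene, had log2 ratios of -0.59, -0.45, -0.42, -0.25 and -0.15 in the XX Sry livers and of -0.46, -0.43, -0.42, -0.30 and 0.012 in the XY-Sry livers. In the XX livers it stood at -0.03, 0.076, 0.26, 0.30 and 0.30, and in the XY- livers at 0.11, 0.16, 0.16, 0.25 and 1.24. The 9 gonadal males other than XY-Sry animal 14 lay below all 10 gonadal females, and animal 14 reached the lower end of the females. The mean was -0.35 ± 0.17 in gonadal males and 0.28 ± 0.35 in gonadal females (SD, n = 10 each), a log2 difference of -0.63 ± 0.12 (SE), or 1.55-fold lower in males (limma, adjusted p = 0.00699). Group means were -0.37 ± 0.17 in XX Sry, -0.32 ± 0.19 in XY-Sry, 0.18 ± 0.15 in XX and 0.38 ± 0.48 in XY- (SD, n = 5 each). In that order, XX Sry and XY-Sry did not differ beyond their spread, nor did XX and XY-, and the step lay between gonadal males and females.

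Fcgr1, the high-affinity IgG receptor, had log2 ratios of -1.10, -1.09, -1.03, -0.80 and -0.63 in the XX Sry livers and of -0.91, -0.77, -0.73, -0.71 and 0.0018 in the XY-Sry livers. In the XX livers it stood at 0.015, 0.088, 0.18, 0.29 and 0.93, and in the XY- livers at -0.47, 0.077, 0.10, 0.10 and 1.83. All XX Sry livers lay below all females, the XY-Sry livers did so except animal 14, and 1 XY- liver, animal 24, was the lowest of the females. The mean was -0.78 ± 0.32 in gonadal males and 0.32 ± 0.63 in gonadal females (SD, n = 10 each). The log2 difference was -1.09 ± 0.21 (SE), or 2.13-fold lower in males (limma, adjusted p = 0.00873), the largest of the 5 genes. Group means rose from -0.93 ± 0.21 in XX Sry and -0.62 ± 0.36 in XY-Sry to 0.30 ± 0.37 in XX and 0.33 ± 0.88 in XY- (SD, n = 5 each). Neighbours of the same gonadal type did not differ beyond their spread.

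Csf1r lies at chr18:61105572-61131139 in the same annotation. This gene for the receptor of CSF1 and IL-34 had log2 ratios of -1.10, -0.87, -0.86, -0.77 and -0.66 in the XX Sry livers and of -0.74, -0.68, -0.66, -0.59 and 0.31 in the XY-Sry livers. It stood at -0.077, 0.052, 0.18, 0.22 and 0.60 in the XX livers and at -0.087, -0.0088, 0.10, 0.16 and 1.96 in the XY- livers. Males other than XY-Sry animal 14 formed a block below every female, while animal 14 lay above 8 of the 10 females. The mean was -0.66 ± 0.37 in gonadal males and 0.31 ± 0.61 in gonadal females (SD, n = 10 each), a log2 difference of -0.97 ± 0.21 (SE), or 1.96-fold lower in males (limma, adjusted p = 0.0159). Group means were -0.85 ± 0.16 in XX Sry, -0.47 ± 0.44 in XY-Sry, 0.19 ± 0.25 in XX and 0.43 ± 0.87 in XY- (SD, n = 5 each). The large SDs of the XY-Sry and XY- groups reflect their single high animals, 14 and 12.

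Clec4f, the lectin of Kupffer cells, had log2 ratios of -0.74, -0.73, -0.52, -0.45 and -0.23 in the XX Sry livers and of -0.73, -0.65, -0.47, -0.37 and 0.22 in the XY-Sry livers. It stood at -0.069, 0.20, 0.29, 0.41 and 0.91 in the XX livers and at -0.080, 0.089, 0.18, 0.24 and 1.36 in the XY- livers. XY-Sry animal 14 was again the only male within the female range. The mean was -0.47 ± 0.30 in gonadal males and 0.35 ± 0.45 in gonadal females (SD, n = 10 each), a log2 difference of -0.82 ± 0.17 (SE), or 1.77-fold lower in males (limma, adjusted p = 0.0106). XX Sry and XY-Sry averaged -0.54 ± 0.21 and -0.40 ± 0.38, and XX and XY- averaged 0.35 ± 0.36 and 0.36 ± 0.57 (SD, n = 5 each). Neither of these pairs differed beyond its spread.

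Mertk, the TAM receptor for dying cells, had log2 ratios of -1.0, -0.48, -0.37, -0.34 and -0.12 in the XX Sry livers and of -0.48, -0.41, -0.13, -0.044 and 0.074 in the XY-Sry livers. It stood at -0.23, -0.14, -0.13, -0.11 and 0.21 in the XX livers and at -0.31, -0.26, -0.23, -0.22 and 0.52 in the XY- livers. Here the groups overlapped: 6 of the 9 males other than animal 14 lay below all females, against 9 of 9 for each of the other genes. The mean was -0.33 ± 0.30 in gonadal males and -0.09 ± 0.26 in gonadal females (SD, n = 10 each), and the log2 difference of -0.24 ± 0.12 (SE) did not pass (limma, adjusted p = 0.301, unadjusted p = 0.0574). Its 95% interval ran from -0.49 to 0.0083. Group means were -0.46 ± 0.33 in XX Sry, -0.20 ± 0.24 in XY-Sry, -0.10 ± 0.35 in XY- and -0.08 ± 0.17 in XX (SD, n = 5 each), with no neighbours apart beyond their spread.

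**Figure D1:**
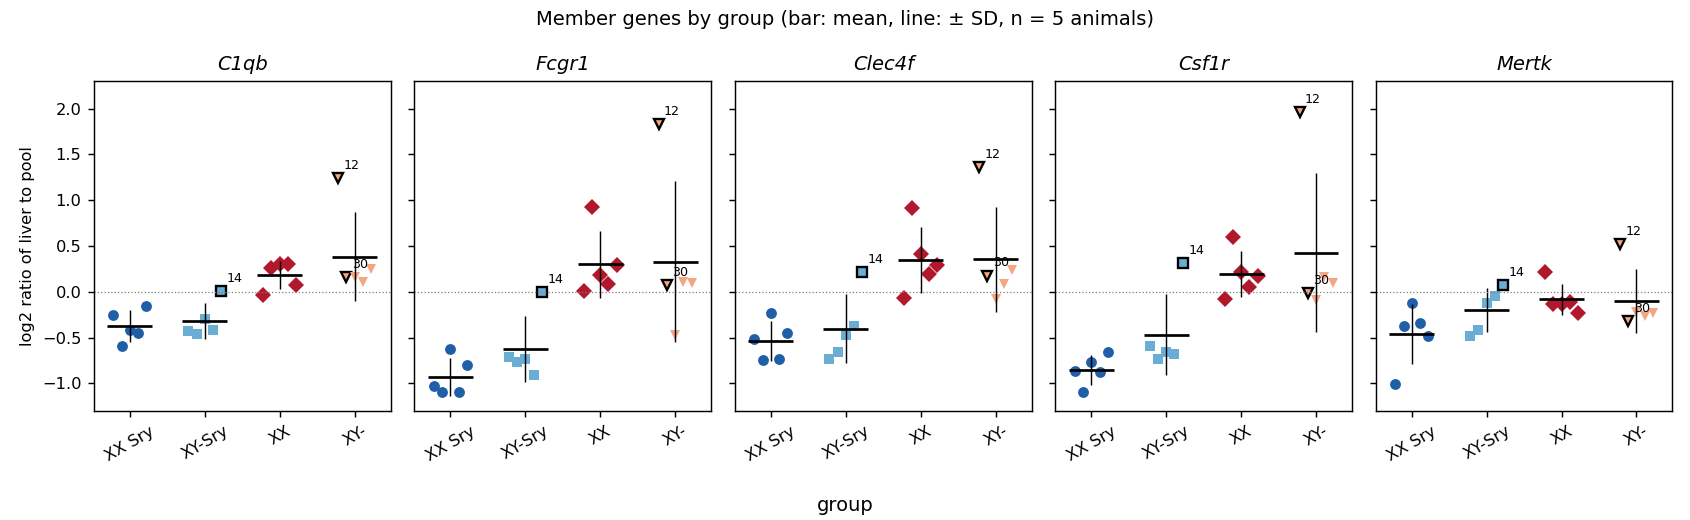
Each point is 1 liver, with the log2 ratio of liver to pool on the vertical axis and the 4 groups on the horizontal axis, 1 panel per gene; thick bars are group means and thin lines ± SD (n = 5 animals). For C1qb, Fcgr1, Clec4f and Csf1r, 9 of the 10 gonadal males sit below every gonadal female, XY-Sry animal 14 sits among the females, and XY- animal 12 is the highest point of each panel; outlined points are animals 12, 14 and the library labelled XY- animal 30.

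The gonadal difference of Mertk was smaller than that of each of the other genes in the same animals. Mertk was made the reference with its difference already known to be the smallest of the set. The permutation p-values below do not allow for that choice and are therefore too small. Measured against Mertk, the log2 difference was larger by -0.39 for C1qb, by -0.85 for Fcgr1, by -0.58 for Clec4f and by -0.73 for Csf1r. Shuffling gonadal type within each sex chromosome complement gave two-sided permutation p-values adjusted over these 4 comparisons of 0.0118 for C1qb, 0.00112 for Fcgr1, 0.00257 for Clec4f and 0.0013 for Csf1r. Without XY- animal 12 the 4 values were -0.35, -0.75, -0.54 and -0.61. How fully each probe reports a ratio was not tested.

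Within XX animals alone, the XX Sry livers lay below the XX livers by a log2 difference of -0.56 ± 0.17 for C1qb, -1.23 ± 0.30 for Fcgr1, -0.88 ± 0.24 for Clec4f, -1.04 ± 0.30 for Csf1r and -0.38 ± 0.17 for Mertk (SE). Within XY animals alone, the XY-Sry livers lay below the XY- livers by -0.70 ± 0.17, -0.95 ± 0.30, -0.76 ± 0.24, -0.90 ± 0.30 and -0.10 ± 0.17 in the same gene order (SE). With 5 animals against 5, 0 of the 5 genes passed limma's adjusted test in either stratum, where 0.665% of all features passed in XX animals and 0.157% in XY animals. Unadjusted p was under 0.05 for all 5 genes in XX animals and for all but Mertk in XY animals. Of all 21643 features, it was so for 2625 in XX animals and for 2005 in XY animals. Fcgr1 in XX animals came nearest, with an adjusted p of 0.0746 (limma). These counts depend on XY- animal 12, whose values enter the spread shared by the groups. Without it, C1qb, Fcgr1, Clec4f and Csf1r all passed in XX animals at the same differences, with adjusted p between 0.00151 and 0.0107 (limma), beside 2.13% of all features, and in XY animals 0 passed. Without animals 12 and 14, C1qb and Csf1r passed in XY animals as well, at -0.57 and -0.71 (adjusted p = 0.00932 and 0.0107, limma), beside 0.263% of all features.

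Sex chromosome complement gave no such step. The log2 difference of XX minus XY livers over both gonadal types was -0.13 ± 0.12 for C1qb, with a 95% interval from -0.38 to 0.12. It was -0.17 ± 0.21 for Fcgr1 (-0.62 to 0.28), -0.07 ± 0.17 for Clec4f (-0.42 to 0.28), -0.31 ± 0.21 for Csf1r (-0.75 to 0.14) and -0.12 ± 0.12 for Mertk (-0.37 to 0.13). Adjusted p lay between 0.923 and 0.962 (limma), and 0.0277% of all features passed. Unadjusted p was under 0.05 for 0 of the 5 genes and for 1099 of all 21643 features. These intervals do not exclude differences of the size seen for Mertk between gonadal types. Without XY- animal 12, the values of Fcgr1 and Clec4f turned to 0.021 and 0.053, and that of C1qb stood at -0.02. The interaction of complement with gonadal type was 0.15 ± 0.24 for C1qb, -0.28 ± 0.43 for Fcgr1, -0.13 ± 0.34 for Clec4f, -0.15 ± 0.42 for Csf1r and -0.29 ± 0.24 for Mertk (SE). None of the 21643 features (0%) passed limma's test of the interaction, and 563 had an unadjusted p under 0.05, none of them among these genes.

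The library labelled XY- animal 30 had little weight in the gonadal differences. Without it the gonadal log2 differences were -0.66 for C1qb, -1.12 for Fcgr1, -0.84 for Clec4f, -1.02 for Csf1r and -0.27 for Mertk. The same 4 genes passed the threshold, beside 2.86% of all features lower. For the sex chromosome difference, 0 of the 5 genes passed without that library, while the features that passed rose from 6 to 13. Leaving out XY- animal 12 and XY-Sry animal 14 together, a choice made after their values were seen, gave -0.56 for C1qb, -0.98 for Fcgr1, -0.77 for Clec4f and -0.88 for Csf1r. The adjusted p of these 4 genes then lay between 5.26e-06 and 0.000424 (limma), and that of Mertk at 0.339, while 2.88% of all features passed as lower.

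**Figure D2:**
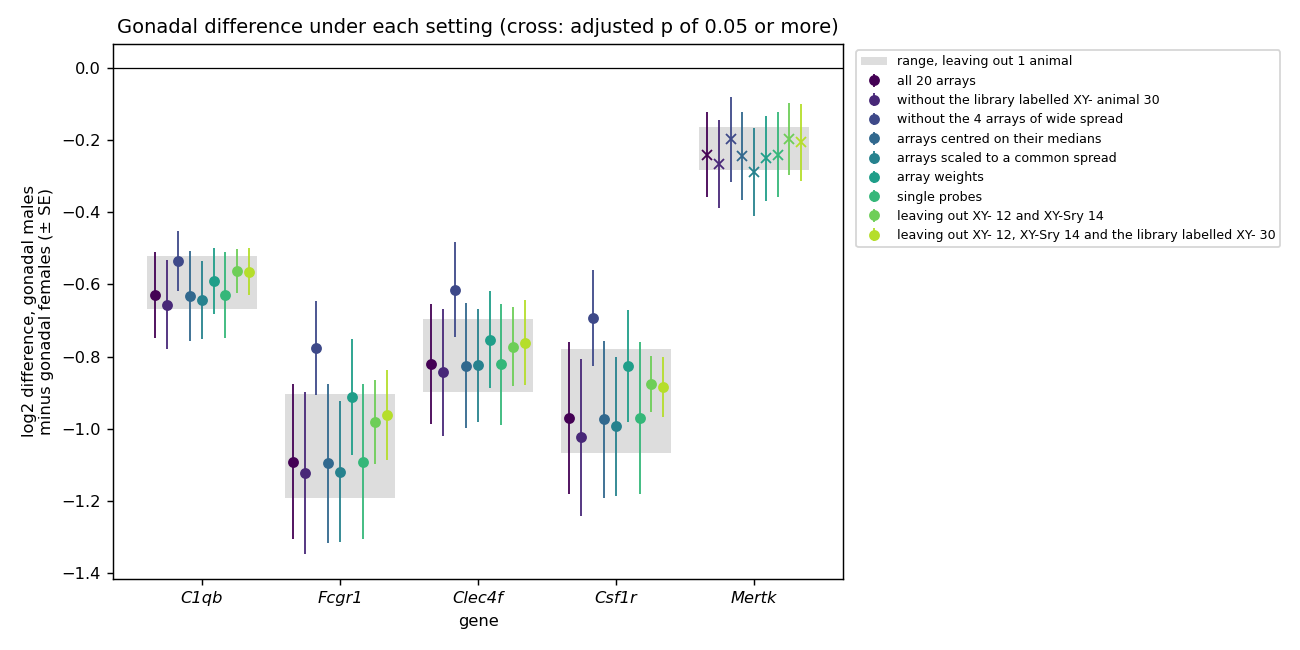
The vertical axis gives the log2 difference of gonadal males minus gonadal females (± SE) for each gene on the horizontal axis under 9 settings, and grey bands span the fits that each leave out 1 animal. C1qb, Fcgr1, Clec4f and Csf1r pass an adjusted p of 0.05 under every setting drawn (circles), Mertk under none (crosses), and for Fcgr1 the smallest difference, -0.78, is that with the wide arrays left out.

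The partners of each gene were then read by role, over lists that were chosen with earlier results of these data known. Together the Kupffer and macrophage lists held 57 genes, of which 50 were measured. Of these, 15 fell in gonadal males and 0 rose (limma, adjusted p under 0.05), 48 had a difference below 0, and the median log2 difference was -0.45. The 50 hold the 5 genes themselves and 45 others, and C1qb, Fcgr1, Clec4f and Csf1r, reported above, are 4 of the 15. On leaving out each animal in turn, between 11 and 19 of the 50 fell. Over all features 2.28% fell, the share to set beside each count of genes that fell in the lists below. The median over all features was 0.0075, and 46.3% of them were below 0. Without XY- animal 12, 17 of the 50 fell, beside 2.51% of all features, and the median was -0.34. Without the wide arrays 15 fell, beside 2.64% of all features, and the median was -0.29. For XX minus XY livers, 0 of the 50 passed, beside 0.0277% of all features. The median there was -0.12, or -0.018 without XY- animal 12.

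All 3 chains of C1q fell in gonadal males, C1qa least firmly. The log2 difference was -0.94 for C1qa (limma, adjusted p = 0.0393) and -0.93 for C1qc (adjusted p = 0.0203), beside the -0.63 of C1qb. The 3 chains assemble into 1 protein, and their median difference was -0.93. C1qb and C1qc passed in all 20 fits that left out 1 animal and C1qa in 7, and C1qa lost its call when the wide arrays were left out, where the median was -0.62.

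Among the Fc receptors, 5 of 6 listed genes were measured and 2 fell, Fcgr1 itself and Fcer1g, the signalling chain that Fcgr1 needs (log2 difference -0.86, limma, adjusted p = 0.0135). The list's median was -0.86, or -0.53 without the wide arrays. The others are named after their values were seen. Fcgr4 and Fcgr3, receptors of lower affinity for IgG, stood at -0.87 (adjusted p = 0.05) and -0.70 (adjusted p = 0.126) and did not pass. Fcgrt, the neonatal Fc receptor, which hepatocytes and endothelium also make, stood at -0.14.

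Of the CSF1 receptor pathway, 8 of 10 genes were measured, 3 fell and 0 rose, with a median of -0.26. Besides Csf1r, the signalling adaptor Tyrobp fell by 0.92 on the log2 scale (limma, adjusted p = 0.0201) and the phospholipase Plcg2 by 0.37 (adjusted p = 0.0165). The ligand and the transcription factors, named after their values were seen, did not pass. Csf1, the ligand, stood at -0.19 (adjusted p = 0.243). Spi1, which encodes the macrophage factor PU.1, stood at -0.04 (adjusted p = 0.68), and the factors Irf8 and Runx1 at -0.26 and 0.04.

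In the group of TAM receptors, their ligands and engulfment genes, 12 of 14 were measured and 1 fell, with a median of -0.21, or -0.10 without the wide arrays. That gene was Rac2, the Rac GTPase of blood cells, which fell by 1.26 on the log2 scale (limma, adjusted p = 0.00659). It was 1 of 3 that passed without XY-Sry animal 14 (Gas6 and Timd4 added), and 1 of 2 without XX animal 2 (Cd36 added) or XX Sry animal 18 (Gas6 added). The receptors and the ligand beside Mertk, named after their values were seen, did not pass over all 20 arrays. Axl and Tyro3, the other TAM receptors, stood at -0.07 and -0.0079, and Gas6, their ligand, at -0.38 (adjusted p = 0.075).

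Of the Kupffer identity genes, 11 of 11 were measured, 3 fell, and the median log2 difference was -0.56, or -0.36 without XY- animal 12. With Clec4f fell Folr2, the macrophage folate receptor, by 1.13 (limma, adjusted p = 0.00751), and Cd5l, a secreted macrophage protein, by 1.18 (adjusted p = 0.0224). Of the 11 genes, 10 had a difference below 0. Vsig4, Timd4, Marco and Cd163, named after their values were seen, did not pass. Vsig4, a complement receptor, stood at -0.57 (adjusted p = 0.109), and Timd4, which binds dying cells, at -0.48 (adjusted p = 0.0773). Marco, a scavenger receptor, stood at -1.12 ± 0.48 (SE, adjusted p = 0.226), whereas Cd163, the haemoglobin scavenger receptor, stood at 0.32 ± 0.29 (SE, adjusted p = 0.656).

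General macrophage genes gave 3 that fell among 12 measured of 14, with a median of -0.56. Leaving out XY- animal 12, 4 fell and the median was -0.37, and without the wide arrays 2 fell. These calls were not firm: between 0 and 5 genes fell on leaving out each animal in turn, and 0 in 9 of the 20 fits. The 3 genes were Ptprc, the pan-leukocyte phosphatase CD45 (log2 difference -0.87, limma, adjusted p = 0.037), Itgb2, the leukocyte integrin chain (-0.21, adjusted p = 0.0381), and the lysosomal protease Lgmn (-0.65, adjusted p = 0.0498). Ptprc and Itgb2 are made by all leukocytes. Adgre1, which encodes F4/80 and is named after its value was seen, stood at -0.88 (adjusted p = 0.0515). Of 9 iron and heme handling genes, 0 passed in limma's test and 2 had an unadjusted p under 0.05, with a median of -0.02. Over all 21643 features, 3842 had such an unadjusted p. Without XX animal 6, Blvrb alone of the 9 passed. The smallest p-values among the 9 were those of Slc11a1, an iron transporter of phagosomes (-0.36, adjusted p = 0.11), and Blvrb, a biliverdin reductase (-0.29, adjusted p = 0.185).

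**Figure D3:**
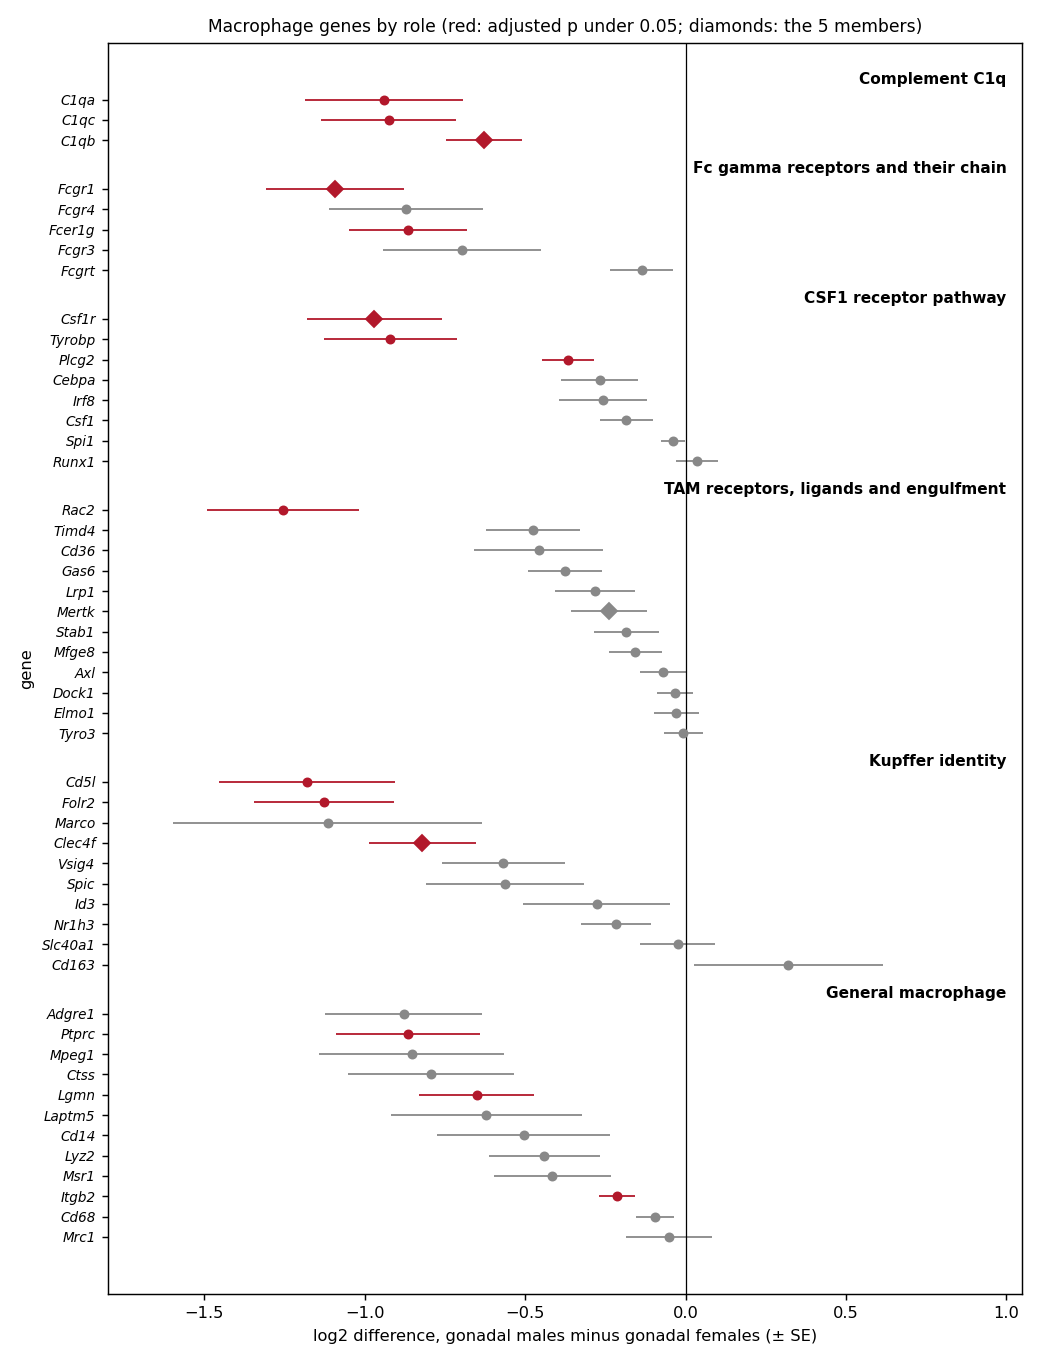
Each row is 1 measured gene, ordered within its role, and the horizontal axis gives the log2 difference of gonadal males minus gonadal females (± SE); red points pass an adjusted p of 0.05 and diamonds are C1qb, Fcgr1, Csf1r, Mertk and Clec4f. Genes near Csf1r (-0.97) and Fcgr1 (-1.09) include Tyrobp and Fcer1g, while Axl, Tyro3, Spi1 and Runx1 sit near 0.

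Markers of some other cells moved with the same contrast. The share of all features that fell, to be set beside each count here, was 2.28%. It was 2.51% without XY- animal 12 and 2.64% without the wide arrays. Of 12 measured T and NK cell genes 6 fell in gonadal males, led by Il2rb, a chain of the IL-2 and IL-15 receptors (log2 difference -1.70, limma, adjusted p = 1.67e-05), and by Cd3g and Cd2 (-1.11 and -1.45, adjusted p = 0.000205 each). The median of the 12 was -0.14, with 8 below 0 and Cd4, Cd8b1, Gzma and Gzmb above 0 at 0.077 to 0.18. Without the wide arrays 5 fell, Gzma rose, and the median was -0.067. The mean over these 12 genes lay between -0.35 and -0.14 in gonadal males and between 0.014 and 0.68 in gonadal females, with no overlap. Nor did the means overlap for the monocyte list (males at most -0.21, females at least -0.14) or the dendritic cell list (males at most -0.25, females at least -0.24). Monocyte genes gave 2 lower of 8, Ly6c2 (-1.31, adjusted p = 0.00603) and Itgax (-0.58, adjusted p = 0.0386), with a median of -0.28, or -0.12 without XY- animal 12. Itgax passed in 8 of the 20 fits that left out 1 animal. Dendritic cell genes gave 2 of 4, the class II genes H2-Aa and H2-Eb1 (-1.04 and -1.40), which macrophages also express. Of 5 B cell genes 1 fell, Cd79b (-0.43, adjusted p = 0.00792), and of 7 stellate cell genes 2 fell, Col1a1 (-0.87, adjusted p = 0.0172) and Pdgfrb (-0.39, adjusted p = 0.0309), the latter in 12 of those 20 fits. Of 8 neutrophil genes 0 passed and 4 had an unadjusted p under 0.05, beside 3842 of all 21643 features. The median of the 8 was -0.78. That median was -0.36, and Ngp passed, without XY- animal 12, and without the wide arrays it was -0.22. Genes of the sinusoidal endothelium and of hepatocytes gave 0 of 7 and 0 of 5, with medians of -0.06 and 0.0054. In each of these lists 1 gene had an unadjusted p under 0.05, beside the same 3842 of 21643 features. The endothelial gene Eng passed in 2 of the 20 fits, those without XY-Sry animal 20 and XX animal 29. The part of these other cells in the differences of C1qb, Fcgr1, Csf1r and Clec4f was not tested. As all values are ratios to a liver pool, they do not show which markers were absent from the tissue.

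XY- animal 12 and XY-Sry animal 14 were high in most but not all macrophage genes, as measured after the values of the 5 genes were seen. Animal 12 stood at 2.37 times the pool for C1qb, 3.56 times for Fcgr1, 2.57 times for Clec4f, 3.90 times for Csf1r and 1.43 times for Mertk. It was the highest of the 20 arrays in 31 of the 50 macrophage genes (62.0%), against 8.53% of all features, and in 26 of the 45 (57.8%) that are not among the 5. Animal 14 was the highest of the 10 gonadal males in 34 of the 50 (68.0%), against 9.88% of all features, and in 29 of those 45 (64.4%). In the TAM and engulfment list each animal was highest in 4 of 12 genes. Axl, Gas6 and Csf1 were near the pool in animal 12, at -0.02, -0.05 and 0.04. The mean over the 50 genes was 1.09 in animal 12, against -0.11 to 0.39 in the 9 other females, and 0.22 in animal 14, against -0.53 to -0.31 in the 9 other males.

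Markers of other cells also varied in these animals. Animal 12 had the highest value of 20 in 7 of 8 neutrophil genes, with a mean of 2.51 where the 9 other females lay between -1.35 and -0.38, and in 6 of 12 T and NK cell genes. Animal 14 lay within the range of the gonadal males for neutrophil genes (-1.39, males -1.67 to -1.29) and for T and NK cell genes (-0.15, males -0.35 to -0.14). It lay above the 9 other males for dendritic cell genes (-0.25 against at most -0.45), stellate cell genes (0.049 against at most -0.074) and endothelial genes (0.032 against at most 0.012). It lay within the male range for Sult2a1, a sulfotransferase gene of female liver named after its value was seen (-1.90, males -3.77 to -1.53, females -0.025 to 1.54). Array spread was wide for animal 12 and not for animal 14. The part of other cells in the values of both animals, or of array spread in the values of animal 12 was not tested.

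**Figure D4:**
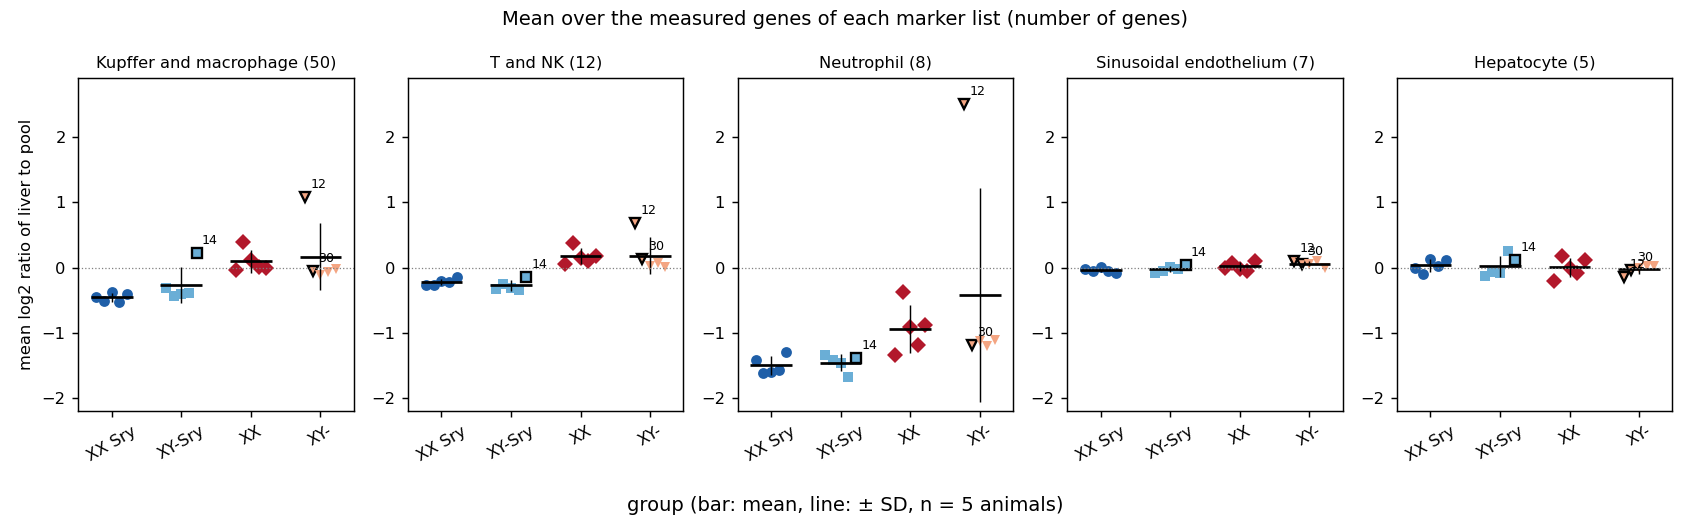
Each point is the mean log2 ratio of liver to pool over the measured genes of a marker list in 1 liver, by group; thick bars are group means and thin lines ± SD (n = 5 animals). The macrophage mean of XY- animal 12 is 1.09 and its neutrophil mean 2.51, XY-Sry animal 14 is above the other males in the macrophage panel and, by a small margin, in the endothelial panel, and the endothelial and hepatocyte means of all livers lie between -0.20 and 0.25.

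Over all 20 animals, C1qb, Fcgr1, Clec4f and Csf1r rose and fell together, and Mertk followed them less closely. Within a gonadal type much of this rested on XY-Sry animal 14 and XY- animal 12. Without them, only the pairs among Fcgr1, Clec4f and Csf1r in gonadal females passed, and no pair with Mertk did. The r over deviations from group means, given next, was not taken without these animals. Because the gonadal difference alone moves these genes together, correlations were taken within each gonadal type and over deviations from the group means, with p-values from permutation tests adjusted over the 10 pairs of each set. Over the deviations of all 20 animals, the 6 pairs among the 4 genes had a Pearson r of 0.85 to 0.96, with adjusted permutation p between 2.5e-05 and 0.000117. Fcgr1 with Csf1r was the closest pair. The 4 pairs with Mertk had an r of 0.50 to 0.60 over the same deviations, with adjusted permutation p between 0.0109 and 0.0325. The permutations moved deviations freely between groups of unequal spread and did not allow for the fitted group means. The p-values over deviations are therefore approximate and may be too small.

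Among the 10 gonadal females, the 6 pairs had an r of 0.85 to 0.97 and a Spearman rho of 0.45 to 0.99, with adjusted permutation p for r of at most 0.0405 and for rho of at most 0.319. Without the 2 females farthest from the median, XY- animal 12 among them, r was 0.26 to 0.83. It was 0.83 for Clec4f with Csf1r, 0.75 for Fcgr1 with Clec4f and 0.74 for Fcgr1 with Csf1r, and the low end belonged to C1qb. Among the 10 gonadal males, the 6 pairs had an r of 0.70 to 0.94 and a rho of 0.41 to 0.77, with adjusted permutation p for r of at most 0.0511 and for rho of at most 0.356. Without the 2 males farthest from the median, XY-Sry animal 14 among them, r was 0.21 to 0.74. Leaving out 1 animal alone, a choice made after seeing the data, gave an r of 0.24 to 0.74 for the 6 pairs in the 9 males without XY-Sry animal 14, and none passed (adjusted exact permutation p at least 0.157). In the 9 females without XY- animal 12, the 3 pairs among Fcgr1, Clec4f and Csf1r kept an r of 0.92 to 0.95 (adjusted exact permutation p at most 0.0026). The 3 pairs with C1qb fell to 0.28 to 0.56 there and did not pass.

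Over all 20 arrays, the 6 pairs had an r of 0.92 to 0.97 and a rho of 0.85 to 0.93 (adjusted permutation p at most 1.67e-05 for r and 3.33e-05 for rho). Without the 2 farthest arrays r was 0.85 to 0.96, and leaving out XY- animal 12 and XY-Sry animal 14 it was 0.86 to 0.97. The pairs with Mertk had an r of 0.59 to 0.69 and a rho of 0.45 to 0.59 (adjusted permutation p for r from 0.00272 to 0.0127), and an r of 0.29 to 0.50 without the 2 farthest arrays. Within gonadal males the r of these pairs was 0.13 to 0.57, and within gonadal females 0.60 to 0.76, with adjusted permutation p between 0.0715 and 0.718. Leaving out XY-Sry animal 14 or XY- animal 12, it was -0.34 to 0.37 and -0.38 to 0.030. Without XY- animal 12, C1qb with Mertk gave an r of 0.31 over the 19 arrays and no longer passed.

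**Figure D5:**
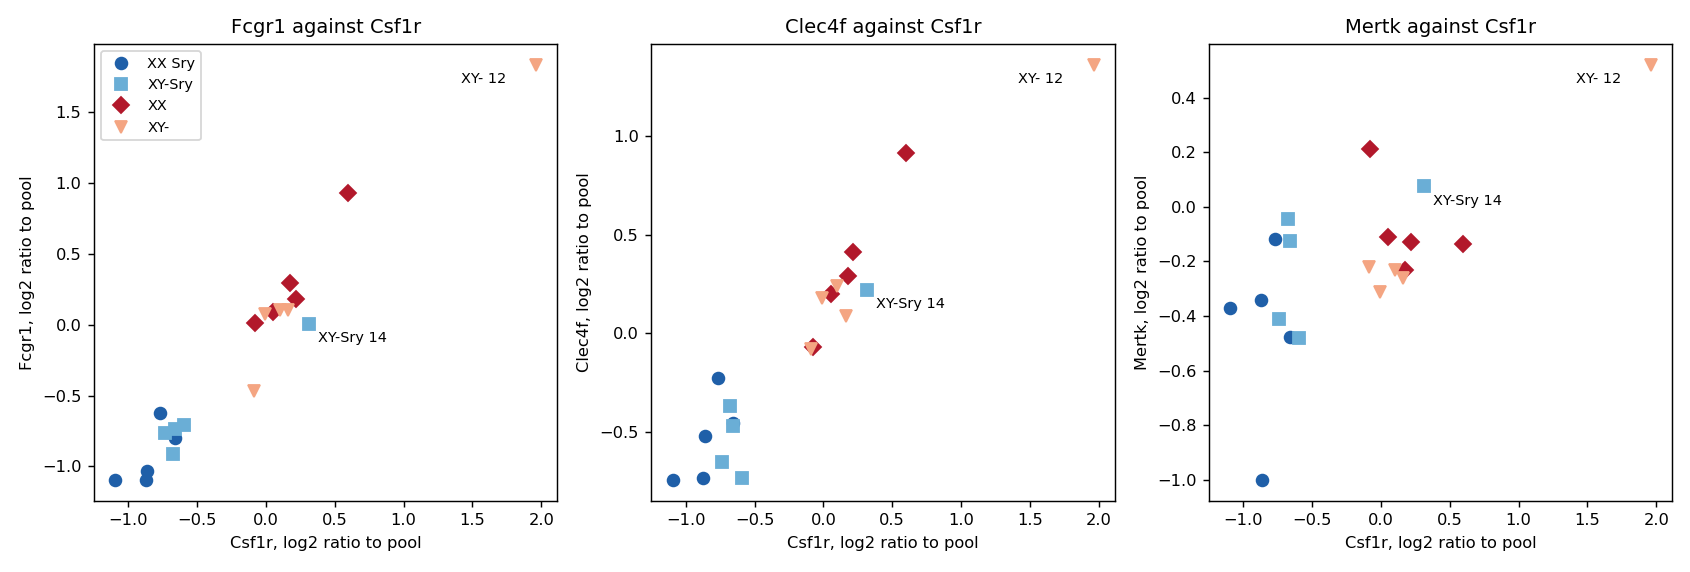
Each point is 1 liver, with the log2 ratio to pool of Csf1r on the horizontal axis and that of Fcgr1, Clec4f or Mertk on the vertical axis; symbols give the 4 groups. Fcgr1 and Clec4f follow Csf1r in a narrow band from the gonadal males at the lower left to XY- animal 12 at the upper right. Mertk follows Csf1r less closely, with its widest scatter among the gonadal males.

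The levels also moved with the spread of their arrays, the SD of log2 ratios over all features. Over 20 arrays the Pearson r with that SD was 0.69 for Fcgr1, 0.64 for Clec4f, 0.62 for Csf1r and 0.55 for C1qb (permutation p adjusted over 5 genes from 0.0042 to 0.0143), with rho of 0.59, 0.51, 0.49 and 0.46. For Mertk it was 0.33 (adjusted permutation p = 0.163). Without XX animal 6 and XY- animal 12, the farthest, r fell to between 0.039 and 0.43. The 4 arrays of wide spread are all from gonadal females, so r over 20 arrays also holds the gonadal difference. Among gonadal males no gene passed, and r lay between -0.45 and 0.032. Without XY-Sry animals 14 and 27, the males farthest in spread, r lay between 0.14 for C1qb and 0.61 for Mertk. Among gonadal females Fcgr1, Clec4f and Csf1r passed, with r of 0.75, 0.70 and 0.63 (adjusted permutation p = 0.016, 0.0304 and 0.0304). Their rho was 0.89, 0.73 and 0.87 (adjusted permutation p = 0.006, 0.0337 and 0.006). Without XY- animals 12 and 24, the females farthest in spread, their r was still 0.64, 0.53 and 0.71. C1qb and Mertk did not pass among females, with r of 0.44 and 0.24, or 0.046 and -0.42 without those animals. With the 4 arrays of wide spread left out, the gonadal log2 difference was -0.53 for C1qb, -0.78 for Fcgr1, -0.61 for Clec4f, -0.69 for Csf1r and -0.20 for Mertk, and the first 4 passed limma's test, beside 2.64% of all features lower.

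Each gene was also ranked by its likeness to the rest of the set. The r of Csf1r with the mean of the other 4 genes was 0.98 and ranked 1 among 11730 named genes. Fcgr1 reached 0.97 and rank 6, Clec4f 0.96 and rank 18, C1qb 0.93 and rank 44, and Mertk 0.67 and rank 654. Over deviations from group means the ranks were 1, 17, 45, 110 and 763 in the same order. These r values are descriptions over 20 arrays that share the pool and the gonadal difference.

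The 10 other named genes whose level was most like the mean of the 5, with an r of 0.97 to 0.98 over 20 arrays, were Ly86, Il10ra, C1qc, Ncf4, Tyrobp, Itgal, Folr2, Slamf8, Pilra and Evl. Their gonadal log2 differences lay between -1.43 for Slamf8 and -0.56 for Evl, values that the choice by r carries with it, since the mean of the 5 holds the gonadal difference. Their r over the 18 arrays without XY- animal 12 and XY-Sry animal 14 was 0.95 to 0.98. Ly86, the MD-1 protein of B cells and macrophages, headed them, followed by Il10ra, the IL-10 receptor chain. C1qc and Folr2 belong to the lists above. Ncf4 encodes a subunit of the phagocyte NADPH oxidase and Itgal an integrin chain of leukocytes in general. The lowest r were those of Mrps33 (-0.89), Sap18 (-0.87), PNN (-0.87, the platform's own symbol), Clcn5 (-0.86) and a probe the platform assigns to Havcr1 through an identifier that is not that of the mouse gene (-0.86).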

How the data were processed

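Liver RNA of 20 mice was hybridised on 20 two-colour arrays, 1 animal each, with liver in Cy5 and pool in Cy3. RNA came from RNeasy columns with a DNase step and was labelled with an automated form of the aminoallyl MessageAmp II kit, per the labels' protocols. The labels name a pool of 17 chow-fed mice and the design text equal portions of each sample, and the pool cancels between groups. The deposited values are log10 ratios for 23574 probes, limited at a size of 2 (29 values), with 2 missing. For scanner, background correction and dye normalization, the method is not given in the sources used here. Base and direction were inferred from Eif2s3y and Kdm5d, which stood at 1.74 and 1.68 times the pool in the 9 XY livers other than the library labelled XY- animal 30 in base 10, against 1.18 and 1.16 in base 2. Another base would scale every log2 value by 1 factor and leave p-values as they are.

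The values were converted to log2 and probes of 1 gene averaged. Of 13713 probes listed in the platform annotation, 12662 were named by Entrez ID and 4 by accession through RefSeq's mouse gene table (GRCm38.p6), 999 kept the platform's symbol and 48 named several genes. No value was filtered. limma 3.58.1 in R 4.3.3 fitted 4 group means over 20 arrays, and eBayes tests were two-sided and adjusted over all 21643 features (Benjamini-Hochberg), and a feature passed at an adjusted p under 0.05. The fit was tested on simulated data. Correlations used 100000 permutations, two-sided, whose smallest p is 1e-05, or all permutations (exact) for sets of 9 animals. The number of arrays limits the precision, and p-values measure the spread between animals.

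The 5 genes, the gene lists and the tests were chosen with earlier results of these data known. Genes named are the 5 genes, the 2 Y-linked genes, up to 4 that passed in each list (or the smallest p-values where none did), and the 10 most like and 5 least like the mean of the 5 genes. Others are named as chosen after their values were seen. Alternatives left out animals, centred or scaled arrays, weighted arrays or used single probes.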

Additional observations from a re-analysis of the deposited data

Results flagged for a closer look

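The 5 genes were examined in each of the 4 groups, 20 sets of 5 animals, for a single animal far from the others by Dixon's criterion (gap over range above 0.71), and 8 sets held one. Chance marks about 1 set in 20, and the genes of 1 animal are not independent. XY- animal 12 stood above its group for all 5 genes, with log2 ratios of 1.24 for C1qb, 1.83 for Fcgr1, 1.36 for Clec4f, 1.96 for Csf1r and 0.52 for Mertk. XY-Sry animal 14 stood above its group at 0.0018 for Fcgr1 and 0.31 for Csf1r. XX animal 29 stood above its group at 0.21 for Mertk, while its C1qb, Fcgr1, Clec4f and Csf1r were the lowest of that group.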

How the results depend on the processing

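The gonadal differences of the 5 genes kept their direction and their side of the threshold under all 8 alternative settings and in the 20 fits that each left out 1 animal. In those 20 fits they ran from -0.67 to -0.52 for C1qb, -1.19 to -0.90 for Fcgr1, -0.90 to -0.70 for Clec4f, -1.07 to -0.78 for Csf1r and -0.28 to -0.16 for Mertk, each smallest without XY- animal 12. The highest adjusted p of the first 4 genes was 0.0352. The uncalled sex chromosome values changed sign: Clec4f to 0.0036 with array weights; C1qb to 0.020, Fcgr1 to 0.099 and Clec4f to 0.13 without animals 12 and 14; and C1qb to 0.018, Fcgr1 to 0.12 and Clec4f to 0.14 without animals 12, 14 and the library labelled XY- animal 30. Leaving out 1 animal moved Fcgr1 between -0.27 and 0.021 and Clec4f between -0.14 and 0.053, the sign turning without animal 12 and, for Clec4f (0.0054), animal 14. The uncalled interaction of C1qb was -0.057 with the 4 wide arrays left out and ran from -0.068 to 0.23 on leaving out 1 animal, that of Clec4f from -0.38 to 0.028 and that of Csf1r from -0.53 to 0.049. The count of features past the gonadal threshold, 809, rose to 1707 with array weights and ran from 393 to 1129 on leaving out 1 animal (393 without XY-Sry 19, 404 without XX Sry 31, 481 without XX Sry 18, 493 without XX 2, 532 without XY-Sry 27). The sex chromosome count, 6, was 13 without the library labelled XY- animal 30, 0 without the wide arrays, 10 with arrays scaled, 12 with array weights and 14 without animals 12, 14 and that library, and ran from 2 to 13 on leaving out 1 animal. No interaction passed under any setting. Of the 5 genes, 0 passed between XX Sry and XX livers, but 3 without the wide arrays, and 4 with arrays scaled, with array weights, without animals 12 and 14, and without those and the library labelled XY- animal 30, and from 0 to 4 on leaving out 1 animal (4 without XY- animal 12). Between XY-Sry and XY- livers 0 passed, but 2 without animals 12 and 14, with or without that library. The correlation of C1qb with Mertk no longer passed without the wide arrays (r = 0.30), without animals 12 and 14 (0.30), within gonadal males (0.13) or females (0.73), and ran from 0.31 to 0.65 on leaving out 1 animal. Without animals 12 and 14, within males and within females, Mertk gave 0.46, 0.57 and 0.71 with Fcgr1, 0.43, 0.56 and 0.60 with Clec4f, and 0.44, 0.51 and 0.76 with Csf1r, none of which passed; C1qb with Fcgr1 within males, at 0.70, did not pass either. The settings without animals 12 and 14 and within gonadal males or females were chosen after seeing the data. The cause of these changes was not tested. No paired analysis was possible because the animal numbers differ between all groups. The files hold ratios without intensities, so signal over background is unknown here.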
